A study of Mus musculus with 2 samples.

Results

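The miR-34 and miR-449 family was followed here in the intestine of mouse embryos of strain B6NCrl at 14.5 days of development. Its 6 genes, Mir34a, Mir34b, Mir34c, Mir449a, Mir449b and Mir449c, were taken by name from the 1973 gene rows of the deposited tables, and all 6 had a row. They lie at 3 loci on different chromosomes. The series holds 2 libraries of short RNA, biological replicates 1 and 2, and a single group with no treatment and no altered allele. Per the labels each library came from the intestine of 1 pup, although the sex is given as pooled, and the replicates were collected on different days. Collection day and replicate therefore cannot be told apart. Whole intestine was used, so a level is a mean over all its cell types, and fewer cells of a type cannot be told apart from less RNA per cell.

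A microRNA is released from a hairpin precursor and represses messenger RNAs that pair with its seed, a short stretch near the 5′ end. The miR-34 and miR-449 genes form one family because they make microRNAs with the same seed. Mir34a and the Mir34b/Mir34c transcript are known targets of the tumour suppressor p53 and restrain the cell cycle. Mir34b, Mir34c and the Mir449 genes are known from multiciliated cells of the airway and reproductive tract, where they act together in making motile cilia, and from testis. Mir34a is known to be expressed in more tissues. Genes of Notch signalling and the cell cycle are among the targets described for the family.

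The mature sequences show what the 3 loci share and where they part. The RefSeq microRNA table (GRCm38.p6) matched 5 of the 6 genes and held 9 of their mature microRNAs. Each sequence below is written 5′ to 3′ with its seed, bases 2 to 8, in capitals. The first 4 come from the 5′ arms of hairpins at all 3 loci and carry one seed. The last 2 come from the 3′ arms of the Mir34b/Mir34c pair, whose seed differs.
miR-34a-5p: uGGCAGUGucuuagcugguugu
miR-34b-5p: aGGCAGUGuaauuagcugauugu
miR-449a-5p: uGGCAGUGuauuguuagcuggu
miR-449c-5p: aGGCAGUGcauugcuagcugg
miR-34b-3p: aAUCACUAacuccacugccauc
miR-34c-3p: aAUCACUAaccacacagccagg

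Of the 1679 mature names in that table, the 4 printed above had the seed GGCAGUG, and none belonged to a gene outside the family. The 5′ arm of Mir34c, miR-34c-5p, which is known to carry the family seed, and the arms of Mir449b were not analysed here. Beyond the seed the microRNAs differ. Of the 5′ arms, miR-34a-5p and miR-449a-5p, from different chromosomes, begin with the same 9 bases. With no gaps allowed, miR-449a-5p and miR-449c-5p match at 18 of 21 positions, the most among the 4 arms of the 5′ side compared here. In the 3′ arms printed, miR-34b-3p and miR-34c-3p share their first 10 bases and match at 17 of 22 positions. The tables give 1 count per gene, so reads from the 5′ and 3′ arms could not be separated.

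The gene models lie on GRCm38, the assembly also called mm10, and all 6 identifiers had the same version in GENCODE M21. Mir34a (ENSMUSG00000065493.1) lies at chr4:150068454-150068555 on the plus strand, where its last 17 bases overlap an exon of the unclassified transcript Gm37795. Mir34c (ENSMUSG00000065587.1, chr9:51103034-51103110) and Mir34b (ENSMUSG00000065492.1, chr9:51103562-51103645) lie on the minus strand with 451 bases between them. Both are in an intron of Btg4, an antiproliferative gene transcribed in the opposite direction. Mir449c (ENSMUSG00000076146.1, chr13:113035983-113036091), Mir449b (ENSMUSG00000078027.1, chr13:113037419-113037498) and Mir449a (ENSMUSG00000065575.1, chr13:113037534-113037624) follow each other on the plus strand within introns of Cdc20b, a gene known from multiciliated cells. None of these 3 overlapping genes had a row in the tables.

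Counts on the gene's own strand totalled 15090126 in replicate 1 and 3903472 in replicate 2, so replicate 1 was 3.87 times deeper. Levels are given as counts scaled to a library total of 1000000 (CPM), and 95% intervals cover counting error only. With 3 counts as the limit that a count of 0 allows, the floor was 0.199 CPM for the deeper library and 0.769 CPM for the other. Genes that reached 10 counts in each library were taken as detected, and there were 363 of them. Markers of the labelled tissue were present: the intestinal epithelial genes Mir192, Mir194-1, Mir194-2 and Mir215 took 0.898% and 1.14% of the counts in replicates 1 and 2, and the smooth muscle genes Mir143 and Mir145a 17.2% and 15.0%. The miR-200 genes of epithelia in general took 3.50% and 4.29%. The remaining lists, for other cell types, ranged from 0.00115% (striated muscle) to 0.495% (stratified epithelium) in replicate 1. In replicate 2 they ranged from 0.000999% (striated muscle) to 0.828% (pancreas and endocrine cells). Several genes of the striated muscle and neural lists make the same mature microRNA as another gene. So do Mir194-1 and Mir194-2 of the intestinal epithelial list. Reads that aligned to several places were given to no gene. Low shares of the striated muscle and neural lists therefore do not show that the cells were absent. The share of the intestinal epithelial list is uncertain for the same reason. No list independent of this family was measured for multiciliated cells.

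The family as a whole took a small share of the counts, nearly the same in both libraries. It had 13953 counts in replicate 1 and 3653 in replicate 2, or 925 and 936 CPM. That is 0.0925% (Wilson 95% interval 0.0909 to 0.0940%) and 0.0936% (0.0906 to 0.0967%) of the counts. With library totals as the scale, the sum was 1.01-fold higher in replicate 2 (log2 0.02, counting interval -0.04 to 0.07). That interval includes no difference. The ratio of replicate 1 to replicate 2 used for scaling was 3.87 with library totals, 3.65 with TMM and 3.62 with DESeq2 size factors. The sign of so small a difference, and whether its interval includes no difference, therefore depend on the scaling. The intestinal epithelial markers exceeded the family sum 9.71-fold in replicate 1 and 12.1-fold in replicate 2. These folds share the uncertainty of the counts of Mir194-1 and Mir194-2.

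Mir34c was the leading member. It had 10472 counts (694 CPM, Wilson interval 681 to 707) in replicate 1 and 2813 counts (721 CPM, 695 to 748) in replicate 2, a mean of 707 ± 18.9 CPM (SD, n = 2). It made up 75.1% and 77.0% of the family's counts and ranked 114 of the 363 detected genes by mean level. The median detected gene had 129 CPM.

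Mir34b, its neighbour, was far lower. It had 470 counts (31.1 CPM, interval 28.5 to 34.1) in replicate 1 and 90 counts (23.1 CPM, 18.8 to 28.3) in replicate 2, a mean of 27.1 ± 5.72 CPM (SD, n = 2), at rank 249. Its 2 intervals did not overlap, and the value in replicate 2 was the lower one.

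Mir34a, the single gene of its locus and a p53 target, was second in the family. It had 2466 counts (163 CPM, interval 157 to 170) in replicate 1 and 615 counts (158 CPM, 146 to 171) in replicate 2, a mean of 160 ± 4.15 CPM (SD, n = 2), at rank 169. Its intervals overlapped in the 2 libraries, and it made up 17.7% and 16.8% of the family's counts.

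Mir449a carried nearly all the counts of the Cdc20b locus. It had 539 counts (35.7 CPM, interval 32.8 to 38.9) in replicate 1 and 134 counts (34.3 CPM, 29.0 to 40.7) in replicate 2, a mean of 35.0 ± 0.983 CPM (SD, n = 2), at rank 240. Mir449b had 3 counts in replicate 1 and 1 in replicate 2. Mir449c had 3 counts in replicate 1 and 0 in replicate 2. Neither was detected by the minimum of 10 counts, and their order relative to each other could not be read at this depth. Thus 4 of the 6 genes were detected, against 363 of all 1973 gene rows.

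**Figure D1:**
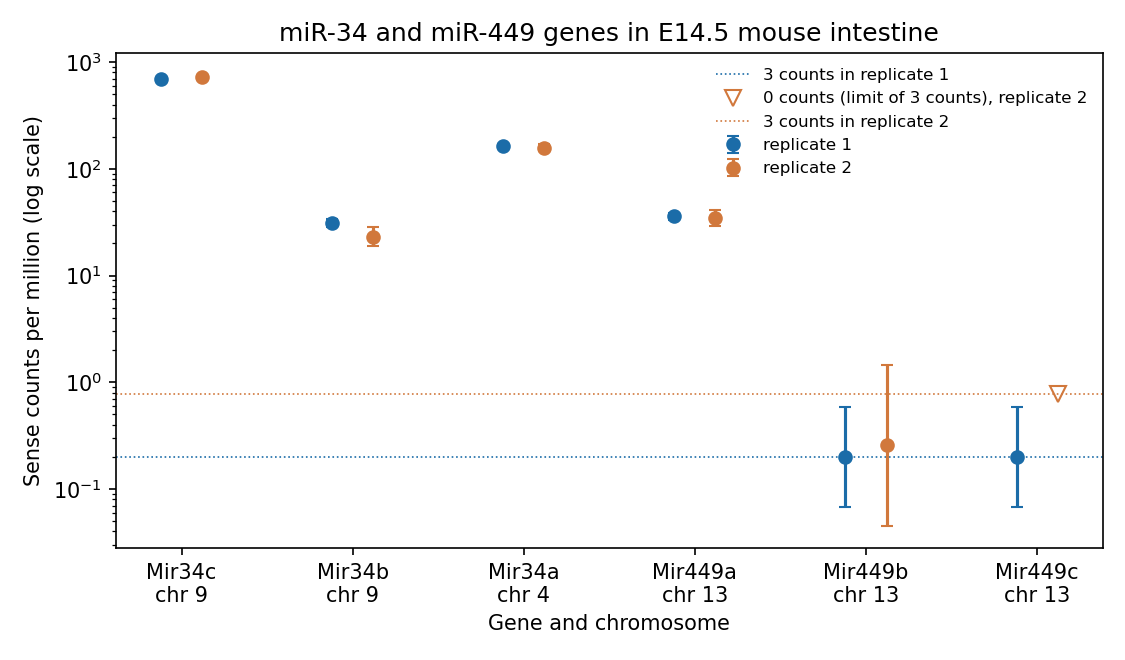
Level of each of the 6 genes in CPM on a log scale, with points for the 2 libraries and bars for the Wilson 95% counting interval. Dotted lines mark 3 counts in each library, and the open triangle marks Mir449c in replicate 2, which had 0 counts. Mir34c lies at a mean of 707 CPM, Mir34a at 160, Mir449a at 35.0 and Mir34b at 27.1, and Mir449b and Mir449c at or near the limit.

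Counting by strand had little effect on the members. Opposite-strand counts were 3 and 1 for Mir34b in replicates 1 and 2 and 0 for the other 5 genes. Over all gene rows 97.1% and 96.9% of the counts lay on the gene's own strand.

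The 3 loci stood in one order in both libraries, the Mir34b/Mir34c pair first, Mir34a second and the Mir449 genes last. In replicate 1 the pair held 78.4% of what the family gave (interval 77.7 to 79.1%), and the share in replicate 2 was 79.5% (78.1 to 80.7%). Mir34a held the shares given above. The Mir449 locus held 3.91% (3.60 to 4.24%) and 3.70% (3.13 to 4.36%). For each locus the counting intervals of the 2 libraries overlapped. The replicate 2 share of the pair still lay above its replicate 1 interval. That of Mir34a lay below its replicate 1 interval (17.0 to 18.3%).

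As ratios of summed counts within a library, in which the library total cancels, the pair exceeded Mir34a 4.44-fold in replicate 1 (exact counting interval 4.25 to 4.64) and 4.72-fold in replicate 2 (4.33 to 5.16). The mean log2 ratio was 2.19 ± 0.06 (SD, n = 2). Mir34a exceeded the Mir449 locus by about as much, 4.52-fold in replicate 1 (4.12 to 4.97) and 4.56-fold in replicate 2 (3.78 to 5.53), at a mean log2 ratio of 2.18 ± 0.007 (SD, n = 2). The pair exceeded the Mir449 locus 20.1-fold (18.4 to 21.9) and 21.5-fold (18.1 to 25.7). The log2 ratios differed between the libraries by 0.09 for the pair over Mir34a, by 0.10 for the pair over Mir449 and by 0.01 for Mir34a over Mir449. These gaps were small against the ratios themselves. No test over libraries was run, since 2 libraries cannot give a two-sided exact p below 0.5. A read covers a whole mature microRNA, so the main ratios were not divided by length. With each count divided by its hairpin length the order of the loci was the same. Ligation and PCR favour some short sequences over others, and their part in the order was not tested.

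**Figure D2:**
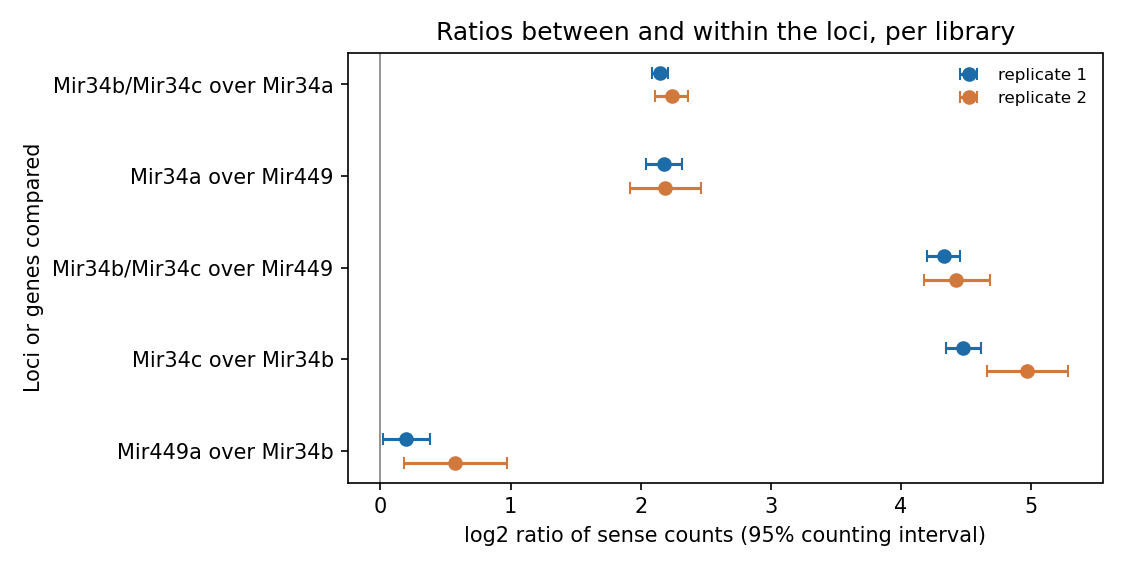
The log2 ratio of summed counts between loci (upper 3 lines) and between single genes (lower 2 lines), with a point for each library and bars for the exact 95% counting interval. The 3 ratios between loci lie at nearly the same place in both libraries, while Mir34c over Mir34b lies at 4.48 in replicate 1 and 4.97 in replicate 2.

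Within the Btg4 locus the counts came nearly all from Mir34c. The share of Mir34c within the pair was 95.7% in replicate 1 (interval 95.3 to 96.1%), against 96.9% in replicate 2 (96.2 to 97.5%). It exceeded Mir34b 22.3-fold in replicate 1 (20.3 to 24.5) and 31.3-fold in replicate 2 (25.3 to 39.0), and these intervals did not overlap. The gap of 0.49 on the log2 scale was the largest of the ratios plotted above.

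Unequal counts from neighbouring hairpins were common in these libraries. Among the other 96 pairs of adjacent detected microRNA genes within 10 kb on one strand, the median absolute log2 ratio was 2.86, or 7.28-fold, with a range from 0.20 to 11.21. Mir34c and Mir34b, at 4.72, were exceeded by 27 of these pairs. Their gap of 0.49 between the libraries was exceeded by 8 of the 96, whose median gap was 0.16. Pairs of one cluster share genes, so they are not independent, and no test was made. Reads that aligned to several places were given to no gene. Pairs that hold a gene whose mature microRNA other genes also make can therefore be distorted. An example is Mir99a and Mirlet7c-1, at a mean absolute log2 ratio of 8.84. The part of such pairs in the median and in the 27 was not tested.

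**Figure D3:**
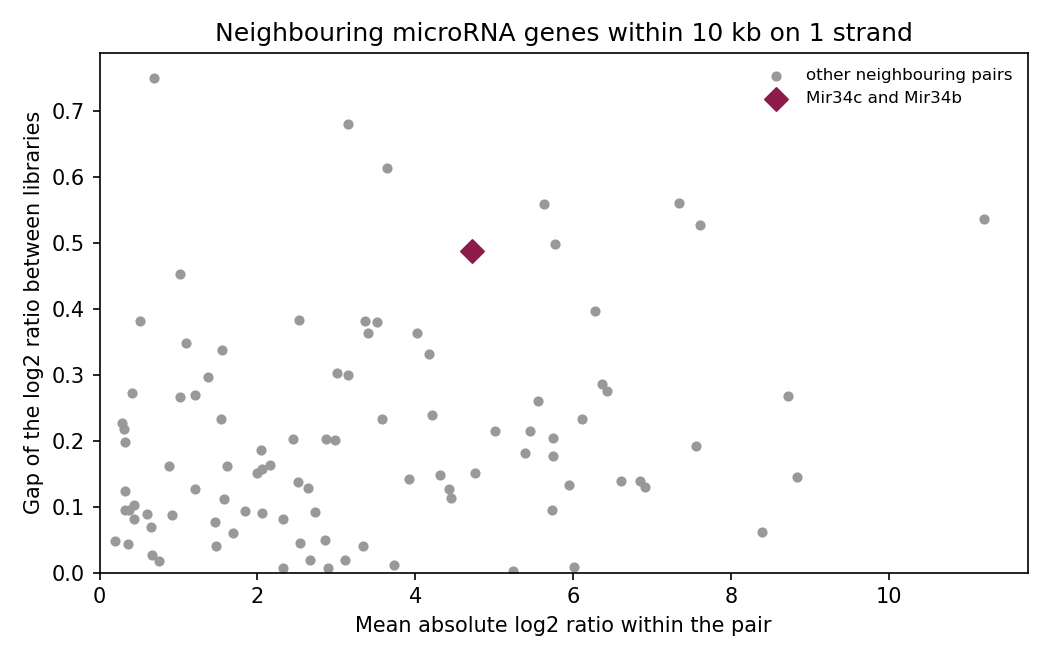
For each pair of adjacent detected microRNA genes within 10 kb on one strand, the mean absolute log2 ratio of their levels (x axis) and the gap of that log2 ratio between the 2 libraries (y axis). The pair Mir34c and Mir34b, drawn as a diamond, lies at 4.72 and 0.49, to the right of and above most of the other 96 pairs.

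Within the Cdc20b locus the share of Mir449a was 98.9% in replicate 1 (97.6 to 99.5%), against 99.3% in replicate 2 (95.9 to 99.9%). Mir449b lies only 35 bases from Mir449a, yet Mir449a exceeded it 180-fold in replicate 1 (exact counting interval 61.2 to 874) and 134-fold in replicate 2 (23.6 to 5332). Over Mir449c the ratio was 180-fold in replicate 1 (61.2 to 874), and in replicate 2 Mir449a was at least 44.7-fold higher, taking 3 counts of that library for Mir449c.

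By level the genes thus ran Mir34c, Mir34a, Mir449a and Mir34b, followed by Mir449b and Mir449c. The first 2 steps were far wider than the spread between the libraries. Mir449a and Mir34b, from different loci, could not be ordered with the same firmness. Mir449a was 1.15-fold higher in replicate 1 (exact counting interval 1.01 to 1.30) and 1.49-fold higher in replicate 2 (1.13 to 1.97). The mean log2 ratio of 0.39 was about as large as its gap of 0.38 between the libraries.

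Reads shared between genes could distort such levels, since 26.5% and 26.6% of the reads in the tables aligned to several places and were given to no gene. The longest stretch that a member's hairpin had in common with any of 2201 other annotated microRNA hairpins, on either strand, was between 11 bases (Mir34b, Mir34c) and 14 bases (Mir449a, with Mir679). Between members it was at most 11 bases. All 6 were under the 20 bases taken here as shared sequence. An exact stretch does not measure arms that are alike with mismatches. For example, miR-449a-5p and miR-449c-5p match at 18 of 21 positions with a longest common run of 7. The aligner is not given, and whether members shared reads with mismatches was not tested. Copies elsewhere in the genome were not examined.

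Between the 2 libraries Mir34b differed and the other detected members did not pass the test. Counts were set against the ratio of the library totals in an exact binomial test (two-sided), and p-values were adjusted by Benjamini and Hochberg's method across all 363 detected genes, with 0.05 as the threshold. Such a test speaks of these libraries alone and not of a condition. Mir34b was 0.740-fold in replicate 2 relative to replicate 1 (log2 -0.43, counting interval -0.78 to -0.11, adjusted p = 0.0226 by the exact test). Mir34c stood at log2 0.05 (-0.01 to 0.11, adjusted p = 0.145 by the exact test), a sign that turned to log2 -0.028 with TMM scaling and -0.038 with DESeq2 size factors. Mir34a stood at -0.05 (-0.18 to 0.08, adjusted p = 0.560 by the exact test) and Mir449a at -0.06 (-0.34 to 0.22, adjusted p = 0.802 by the exact test). The value of Mir34a depended on the scaling. It was log2 -0.135 with TMM (adjusted p = 0.085 by the exact test) and -0.146 with DESeq2 size factors (adjusted p = 0.0611 by the exact test).

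One of 4 detected members was therefore called, against 43.8% of all detected genes, and 14.0% of all detected genes were called lower in replicate 2. Under TMM scaling 40.8% of the calls were higher in replicate 2 and under DESeq2 size factors 37.5%, against 67.9% with library totals, so directions as small as that of Mir34c depend on the scaling. With library totals as the scale, the median absolute log2 difference was 0.06 over the 4 detected members and 0.15 over all detected genes. With TMM scaling the members stood at log2 -0.135 (Mir34a), -0.516 (Mir34b), -0.028 (Mir34c) and -0.140 (Mir449a). The median over the members therefore depends on the scaling. Scaled to library totals, the summed intestinal epithelial markers were higher in replicate 2 by log2 0.34 and the pancreatic and endocrine markers by 1.19. On the same scale the family's sum moved by 0.02, a value whose sign depends on the scaling.

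**Figure D4:**
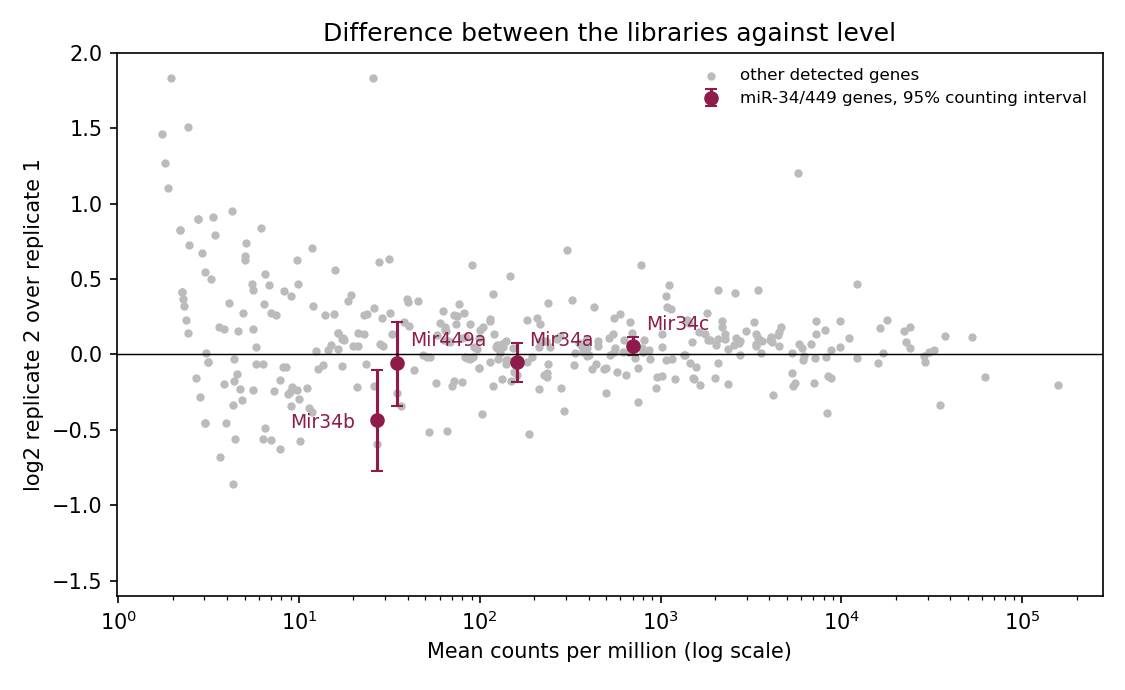
The log2 difference between replicate 2 and replicate 1 against the mean level in CPM (log scale) for the detected genes, with the 4 detected miR-34 and miR-449 genes in colour and their exact 95% counting intervals as bars. With library totals as the scale, Mir34b lies below 0 with an interval that excludes 0. The intervals of Mir34a, Mir34c and Mir449a include 0 on that scale. Of the other genes, 1 lies outside the drawn range.

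Other microRNA genes linked to p53 were abundant in the same libraries. The list held 11 genes that p53 is known to induce or whose processing it is known to raise, the family left out. All 11 were detected, against 363 of all 1973 gene rows. Their median level was 2610 CPM, against 129 CPM over all detected genes and 97.8 CPM over the detected members of the family. The list holds all the intestinal epithelial and smooth muscle markers named above, with Mir200c and Mir141 of the epithelial ones. Its level is therefore largely that of tissue markers, and a link of this level to p53 was not tested. The lowest of the 11, Mir194-1 (620 and 936 CPM), was close to Mir34c, and all 11 had a higher mean level than Mir34a. Mir107 had 1493 ± 62.5 CPM (SD, n = 2), Mir15a 2610 ± 137 CPM and Mir16-1 2025 ± 64.0 CPM. Mature miR-194 and miR-16 are also made by other genes, so the counts of Mir194-1, Mir194-2 and Mir16-1 are uncertain.

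Of the 11 p53-linked genes, 9 were called higher in replicate 2, against 29.8% of all detected genes, 1 was called lower and 1 did not pass. Their median log2 difference was 0.14, against 0.06 over all detected genes. With TMM scaling 6 were called higher and 2 lower, against 16.0% and 23.1% of all detected genes. With DESeq2 size factors the numbers were also 6 and 2, against 14.9% and 24.8%. The list includes the intestinal epithelial genes Mir192, Mir194-1, Mir194-2 and Mir215 and the epithelial genes Mir200c and Mir141, whose marker lists were higher in replicate 2 by log2 0.34 and 0.29. The list also includes both smooth muscle genes, whose marker list was at log2 -0.20 in replicate 2 over replicate 1. Of these, Mir143 was the gene called lower (log2 -0.20) and Mir145a the gene that did not pass. Both were the 2 called lower with TMM scaling and with DESeq2 size factors. The part of epithelial and smooth muscle content in these counts was not tested.

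The detected genes outside the family whose levels were most like that of Mir34c, by distance of log2(CPM + 1) over the 2 libraries, were Mir106a (727 and 715 CPM), Mir210 (661 and 729 CPM) and Mir540 (662 and 670 CPM). For Mir34a they were Mir675 (167 and 152 CPM), Mir410 (160 and 147 CPM) and Mir679 (151 and 155 CPM). With 2 libraries of one group this describes nearness in level alone.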

How the data were processed

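Short RNA (inserts under 30 bases, per the labels) was sequenced from 2 samples of 1 group. The authors' deposited tables hold whole-number read counts per gene, in separate columns for both strands together, for the sense strand and for the antisense strand. Which column is which rests on the values. Per the files' accompanying notes, reads were aligned to mm10 and quantified on GENCODE M4; the aligner, trimming and counting program are not given in the sources used here. The counts had no molecular identifiers, so PCR copies count as reads. Rows for unaligned, multiply aligned and unassigned reads were left out (12.4% and 13.8%, 26.5% and 26.6%, 2.20% and 2.10% of reads).

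Sense counts were divided by their total over 1973 gene rows. Symbols came from GENCODE M21 (1894 matched). Shares carry Wilson intervals and ratios exact (Clopper-Pearson) ones. Library differences were put to an exact binomial test (two-sided, scipy 1.17.1) and adjusted by Benjamini and Hochberg's method across all detected genes. The script was tested on simulated counts that held counting error only. Further spread between replicates was not simulated. Alternatives were both strands, TMM (edgeR 4.0.16), DESeq2 1.42.0 size factors, other count filters, the total used, the leading member of each locus, members that share sequence and each replicate left out. Named were all members, the 3 genes nearest to Mir34c and Mir34a in level, and list members with a mean of at least 50 CPM. The members and lists were chosen with earlier results of these data known.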

Additional observations from a re-analysis of the deposited data

How the results depend on the processing

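The family's share of counts, 0.0930% as the mean of both libraries, was 0.0903% with both strands counted and 0.0525% with all reads of the tables as the total. Dividing by hairpin length, an alternative chosen after seeing the data, gave log2 ratios of 2.60 for Mir34b/Mir34c over Mir34a, 4.61 for Mir34b/Mir34c over Mir449 and 2.02 for Mir34a over Mir449. With the leading gene of each locus in place of the sum the last ratio was 2.20, against 2.18. The difference of Mir34c between the libraries turned from log2 0.05 to -0.028 with TMM and to -0.038 with DESeq2 size factors, and passed the test under none of the 5 alternatives run. Mir34b was lower in replicate 2 and past the threshold under all 5 (adjusted p from 0.00371 to 0.0446). Mir34a was lower in replicate 2 under all 5 and past the threshold under none. Its lowest adjusted p was 0.0611 by the exact test, with DESeq2 size factors. The count of 1 member called was the same under each. Leaving out replicate 1 or 2 gave family shares of 0.0936% and 0.0925%. No member shares 20 bases with another hairpin, so that alternative removed none. Library differences have no value with 1 library left out. No paired analysis was possible because the series holds 1 group. Depth limits Mir449b and Mir449c, which had 3 counts or fewer, and Mir34b in replicate 2, which had 90.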
